A study of Mus musculus with 36 samples.

Results

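The nuclear subunits of mitochondrial complex I were followed through mouse liver, freshly dissociated liver cells and cultured hepatocytes, with and without the hepatocyte Nampt gene. The members were the rows of the gene count table whose symbol starts with Ndufa, Ndufb, Ndufc, Ndufs, Ndufv or Ndufab followed by a number. Names of the assembly factors (Ndufaf) and names ending in -ps were left out. The rule took 41 of 54232 rows. Of these, 38 were protein-coding genes, all of which passed the filter on low counts, and 3 were processed pseudogenes that did not pass it. The pseudogene rows held 0 to 14 counts per library for Ndufs6b, 1 to 11 for Ndufb4c and 0 to 4 for Ndufa11b, and they were not tested. Of the 38 genes tested, 36 encode complex I subunits, and Ndufa4 and Ndufa4l2 carry the name without being counted as subunits today. Among the rows with a -ps name, Ndufb1-ps held 331 to 1115 counts in the libraries used and Ndufab1-ps 0 to 6. Ndufb1-ps is annotated as a bidirectional promoter long noncoding RNA and Ndufab1-ps as a processed pseudogene. No row named Ndufb1 was among the members, so the sets below hold no gene of that name.

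Each of 12 female mice gave 3 samples for total RNA sequencing. Liver (L) came from the median lobe once blood had been washed out, cell suspension (CS) was the washed cells of the other lobes after collagenase and before plating, and primary hepatocytes (PH) were those cells after 24 h on collagen. In the HNKO mice both Nampt alleles were floxed and 1 Alb-Cre allele removed them, and the WT mice were floxed littermates without Cre, so that every mouse carried the floxed allele. The mice, on a C57BL6 background, started a purified diet at 10 to 12 weeks of age and stayed on it for 3 to 5 weeks. The groups were HNKO L, HNKO CS and HNKO PH with 6 mice each, WT L with 5, and WT CS and WT PH with 6 each. Alb-Cre acts in cells that express albumin, and Nampt was not measured here by cell type. Every contrast with L also compares lobes. Libraries were replicated by mouse. In such bulk samples fewer cells of a type and less RNA per cell cannot be told apart.

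Complex I is the entry point of electrons from NADH into the respiratory chain. Its hydrophilic arm reaches into the mitochondrial matrix, where Ndufv1 binds NADH and hands electrons over a chain of iron-sulfur clusters to ubiquinone, and its membrane arm pumps protons. Core subunits carry out catalysis and are encoded partly in the nucleus and partly in mitochondrial DNA, while accessory subunits surround the core and hold the assembled complex together. Hepatocytes are rich in mitochondria, and NAD, which the enzyme Nampt helps to regenerate from nicotinamide, is what NADH becomes once the complex has oxidised it. The 36 nuclear genes lay on 15 chromosomes. By role they were 7 core subunits and 9 accessory subunits of the matrix arm, 9 accessory subunits of the proximal membrane arm, 10 accessory subunits of the distal membrane arm, and Ndufab1, the acyl carrier protein, which also serves mitochondrial fatty acid synthesis.

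Promoter windows from 250 bases before to 50 bases after the RefSeq start of the gene were taken on GRCm38.p6 and matched 33 of the 38 genes. That start can differ from the GENCODE start behind the gene coordinates given below. Among the windows printed below, those of Ndufs7 and Ndufa12 lie wholly inside the GENCODE gene. Ndufa5 and Ndufa7 had 2 windows each. Motifs were searched on both strands as exact letters. The motif GCGCANGCGC of NRF1, a factor known for its sites in genes of the respiratory chain, was in the windows of 7 of 33 members (21.2%), against 5.19% of 27025 genes. The motif AAGATGGC of YY1 was in 7 members (21.2%), against 3.19% of genes. The motif CCGGAAGT of GABPA was in 1 member (3.03%), against 4.31% of genes, and TCAAGGTCA, the motif of the oestrogen-related receptors, was in 0 members, against 0.466% of genes. A window held any of the 4 motifs in 14 members (42.4%), against 12.1% of genes. The NRF1 letters stood in Ndufa5, Ndufa6, Ndufa8, Ndufa11, Ndufb4, Ndufs5 and Ndufs6, and the YY1 letters in Ndufa3, Ndufa9, Ndufb8, Ndufc1, Ndufs4, Ndufs6 and Ndufs7. Such a match describes the letters of a window and not a bound site. The YY1 matches all began between bases 23 and 39 after the RefSeq start, on the strand of the gene. The YY1 letters contain ATG, and whether these matches cover start codons was not tested.

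The windows of 5 members with contrasting values are printed 5′ to 3′ on the strand of the gene. Ndufb8 and Ndufs7 were called lower in HNKO L. Ndufb10 and Ndufa6 were among the 3 lowest log2 fold changes of culture in WT, and Ndufa12 had the smallest fall. Capitals mark a motif, with its first base counted from 1 at the RefSeq start. It is the YY1 motif in Ndufb8 (base 39) and Ndufs7 (base 25), and the NRF1 motif, matched on the other strand, in Ndufa6 (base 24). The windows of Ndufb10 and Ndufa12 held none of the 4. On GRCm38.p6 they are chr19:44555393-44555692 (minus strand) for Ndufb8, chr10:80249199-80249498 (plus strand) for Ndufs7, chr17:24724374-24724673 (minus strand) for Ndufb10, chr15:82354242-82354541 (minus strand) for Ndufa6 and chr10:94198785-94199084 (plus strand) for Ndufa12.
Ndufb8: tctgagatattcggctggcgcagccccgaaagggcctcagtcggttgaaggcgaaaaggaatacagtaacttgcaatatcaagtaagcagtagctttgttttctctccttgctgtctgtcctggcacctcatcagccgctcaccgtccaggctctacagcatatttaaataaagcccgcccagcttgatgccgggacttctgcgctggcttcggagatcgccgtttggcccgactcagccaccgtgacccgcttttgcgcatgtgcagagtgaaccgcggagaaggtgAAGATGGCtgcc
Ndufs7: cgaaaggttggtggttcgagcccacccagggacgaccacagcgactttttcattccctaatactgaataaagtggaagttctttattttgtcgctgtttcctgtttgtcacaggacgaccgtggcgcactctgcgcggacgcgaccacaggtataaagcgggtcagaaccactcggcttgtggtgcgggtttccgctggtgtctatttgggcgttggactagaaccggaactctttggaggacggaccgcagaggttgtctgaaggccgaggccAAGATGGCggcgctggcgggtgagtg
Ndufb10: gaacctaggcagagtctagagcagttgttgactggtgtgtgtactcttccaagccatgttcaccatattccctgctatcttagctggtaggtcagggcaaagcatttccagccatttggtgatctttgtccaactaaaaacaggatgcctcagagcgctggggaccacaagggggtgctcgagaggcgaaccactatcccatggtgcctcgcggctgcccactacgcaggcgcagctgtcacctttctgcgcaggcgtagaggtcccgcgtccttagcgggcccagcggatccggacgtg
Ndufa6: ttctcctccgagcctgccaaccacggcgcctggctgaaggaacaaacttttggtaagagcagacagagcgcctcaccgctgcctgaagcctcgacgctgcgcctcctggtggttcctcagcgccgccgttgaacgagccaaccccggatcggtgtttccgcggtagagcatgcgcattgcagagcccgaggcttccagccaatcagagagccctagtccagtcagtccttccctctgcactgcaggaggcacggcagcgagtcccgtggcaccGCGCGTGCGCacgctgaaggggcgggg
Ndufa12: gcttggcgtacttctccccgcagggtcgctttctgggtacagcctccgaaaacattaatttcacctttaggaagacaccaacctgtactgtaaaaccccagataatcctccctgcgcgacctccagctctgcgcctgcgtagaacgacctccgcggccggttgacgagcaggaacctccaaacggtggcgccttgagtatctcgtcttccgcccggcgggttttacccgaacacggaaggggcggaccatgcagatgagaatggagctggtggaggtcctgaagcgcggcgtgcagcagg

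Total counts of the 35 libraries used ranged between 8698735 and 20350519, and the 38 genes took a median of 0.252% of the counts in HNKO L and 0.294% in WT L, 0.262% in HNKO CS and 0.252% in WT CS, and 0.199% in HNKO PH and 0.200% in WT PH. Nampt was lower in HNKO in each sample type, at 31.3 to 52.1 CPM in HNKO L against 55.6 to 121 in WT L, 27.8 to 59.1 in HNKO CS against 58.5 to 159 in WT CS, and 69.1 to 87.3 in HNKO PH against 175 to 241 in WT PH (CPM, a gene's count relative to its library's total, scaled by the TMM method). Its log2 fold changes were -0.99 in L (adjusted p = 0.0142), -1.23 in CS (adjusted p = 0.00585) and -1.34 in PH (adjusted p = 0.000441). The L and CS libraries of HNKO mouse 552 stood apart. Its L had the highest summed level of the cholangiocyte markers (1382 CPM, against 72.4 to 345 in the other HNKO L and 43.5 to 58.9 in WT L) and of the proliferation markers (102 CPM, against 5.92 to 17.3 in the other HNKO L and 5.58 to 10.5 in WT L). Of the cholangiocyte markers, Spp1 alone reached 1364 CPM in HNKO L, and the next highest, Epcam, reached 8.74 CPM. The WT L library of mouse 558, with 2547422 counts, was left out. The hepatocyte markers summed to 89055 to 170562 CPM in HNKO L and 154074 to 186227 CPM in WT L, so the labelled tissue carried its markers.

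Per kilobase of transcript, the subunit mRNAs spanned a wide range in spite of forming a single complex. In WT L the highest levels were those of Ndufa6 at 283 CPM per kb, Ndufb9 at 199, Ndufb10 at 171, Ndufa7 at 162 and Ndufb8 at 154, and the lowest were those of Ndufab1 at 9.90, Ndufb4 at 8.54 and Ndufb2 at 7.20 CPM per kb (means, n = 5). The long annotated transcripts of Ndufb2 (4371 bases) and Ndufab1 (3479 bases), against a median of 939.5 bases over the 36, lower their values on this scale. Ndufb4 is uncertain, because its near-identical copies could share its reads. The order of the members was nearly the same in HNKO L as in WT L (Spearman rho = 0.99 over 36 genes) and shifted more in PH (rho = 0.92 between WT PH and WT L). Ndufb10 ranked 17 of 36 in WT PH and 3 in WT L, and Ndufb11 ranked 21 in WT PH and 12 in WT L. These correlations are across genes of pooled group means and carry no test. The plus or minus 1 SD ranges of Ndufa7 (162 ± 11.9) and Ndufb10 (171 ± 18.2) overlapped in WT L, so their order there is not separated by the spread.

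The summed level of the 36 subunits was lower in HNKO L than in WT L and fell further in culture in both genotypes. It was 1898 to 2867 CPM in HNKO L with a median of 2556 CPM. In WT L it was 2996, 3082, 3419, 3267 and 2977 CPM in mice 544, 548, 554, 556 and 564. Every HNKO L lay below every WT L, and the means were 2480 ± 374 CPM (SD, n = 6) in HNKO and 3148 ± 190 CPM (n = 5) in WT. In CS the sums overlapped, at 2792 ± 428 CPM in HNKO (2103 to 3419) and 2972 ± 169 CPM in WT (2688 to 3197; n = 6 each). In PH they were 1358 ± 71.1 CPM in HNKO (1278 to 1450) and 1390 ± 82.2 CPM in WT (1280 to 1520; n = 6 each), and again overlapped. The sums carry no test, since the members were chosen with results known.

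**Figure D1:**
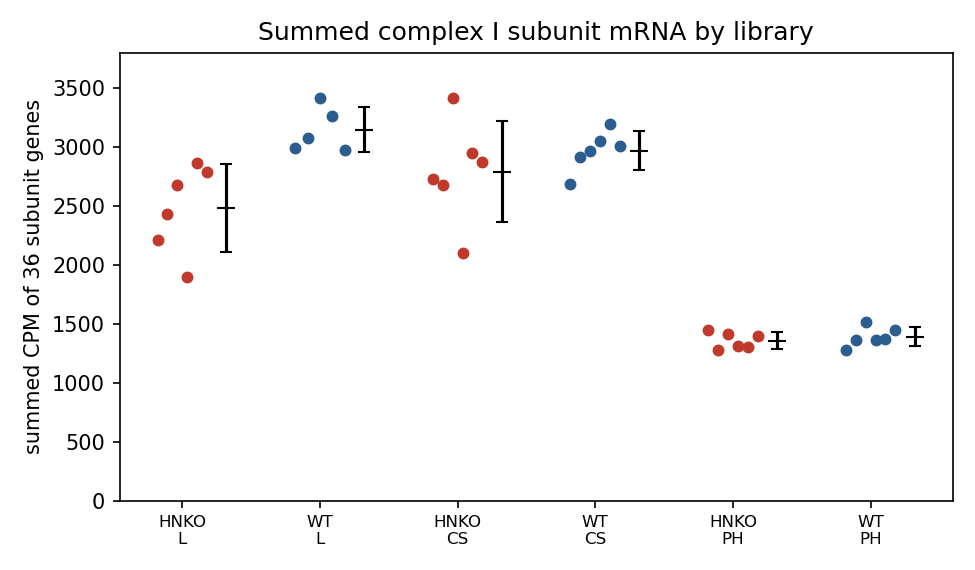
Summed level of the 36 nuclear complex I subunit genes (TMM-scaled CPM, vertical axis) in each library, by sample type (L, CS, PH) and genotype. Points are mice and bars are the mean ± SD of 5 libraries in WT L and 6 in each other group. On this scale every HNKO L lay below every WT L, the CS groups overlapped, and all PH libraries lay between 1278 and 1520 CPM.

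Against the same mouse's own L, the sum in CS was 103% to 128% in HNKO mice (median 110.4%, n = 6) and 86.7% to 101% in WT mice (median 93.5%, n = 5). In PH it was 45.4% to 69.0% of L in HNKO mice (median 52.6%) and 41.7% to 48.5% in WT mice (median 44.3%). All 36 members were lower in PH than in L within each of the 5 WT mice, and 31 to 36 were lower within each HNKO mouse. These percentages and counts are on the TMM scale. Shares of total counts, with Ndufa4 and Ndufa4l2 included, fell from L to CS in HNKO mice 552, 562 and 566. They went from 0.231% to 0.209%, from 0.291% to 0.261% and from 0.302% to 0.262%. The share rose in HNKO mice 540, 542 and 546, and fell in the 5 WT mice. From L to PH it fell in all of these mice, as in HNKO mouse 540 (0.250% to 0.209%). Members varied more between HNKO than between WT animals before culture. The median coefficient of variation over the 36 genes was 17.4% in HNKO L and 10.2% in WT L, 17.3% in HNKO CS and 8.96% in WT CS, and 9.32% in HNKO PH and 9.85% in WT PH. Much of the low end in HNKO came from mouse 552, whose L held the lowest HNKO value for 26 of the 36 genes, with mouse 540 lowest for the other 10, and whose CS was lowest for 33.

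HNKO against WT in L asks which subunit mRNAs differ between the genotypes in the organ itself. In the edgeR fit 7 of the 38 genes were lower in HNKO at an adjusted p under 0.05 and 0 were higher, where 0.475% of all 14932 genes tested were lower. All 38 log2 fold changes were negative and 35 had an unadjusted p under 0.05. The median over the 36 subunits was -0.35, against -0.00 over all genes. Of the 7, 6 belong to the distal membrane arm (Ndufb5, Ndufb7, Ndufb8, Ndufb9, Ndufb10 and Ndufb11) and 1 to the core of the matrix arm (Ndufs7). The median log2 fold change was -0.47 over the distal membrane arm, -0.34 over the proximal membrane arm, -0.30 over the accessory subunits of the matrix arm and -0.26 over the core, and these differences between arms were not tested. Every HNKO library lay below every WT library for 10 of the 36 genes, against 1.42% of all genes tested.

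Ndufb8 (ENSMUSG00000025204.10, chr19:44548572-44555440, minus strand), an accessory subunit of the distal membrane arm, had the smallest p. It had 50.6 CPM in the lowest, 70.0 in the median and 88.0 in the highest HNKO L, against 98.1, 110, 113, 107 and 96.7 CPM in the 5 WT L. The groups did not overlap, and the log2 fold change was -0.57 ± 0.11 (SE, adjusted p = 0.00966). Ndufb11 (ENSMUSG00000031059.9, chrX:20615326-20617619, minus strand), a single-pass membrane subunit of the same arm, had 52.2, 81.8 and 91.3 CPM in the lowest, median and highest HNKO L, against 117, 112, 116, 98.8 and 106 CPM in WT L. Its groups were separate too, with mouse 552 well below the other HNKO livers, and the log2 fold change was -0.48 ± 0.11 (adjusted p = 0.0273). Ndufb5 (ENSMUSG00000027673.12, chr3:32736990-32751566, plus strand), a further distal subunit, had 61.3, 78.8 and 88.4 CPM in HNKO L, against 102, 94.3, 113, 99.3 and 93.5 CPM in WT L. All HNKO values were below all WT values, with a log2 fold change of -0.38 ± 0.09 (adjusted p = 0.0295). Each of these 3 genes shares some exon bases with another gene. Ndufb8 shares 134 with Gm20538 on the same strand, which a strand setting would not separate. Ndufb9, also called, shares 201 with Gm49356 on the same strand. Ndufb11 (117 bases, Rbm10) and Ndufb5 (616 bases, Mrpl47) overlap on the other strand only. Whether counting used strand is not given in the sources used here.

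Ndufs7 (ENSMUSG00000020153.14, chr10:80249121-80256794, plus strand) encodes the core subunit with the last iron-sulfur cluster before ubiquinone. It had 24.8, 44.0 and 53.5 CPM in the lowest, median and highest HNKO L, against 60.3, 67.5, 72.8, 58.9 and 65.5 CPM in WT L. The groups were apart, and its log2 fold change of -0.61 ± 0.15 was the lowest of the 38 (adjusted p = 0.0319). Ndufb7, a cysteine-rich subunit on the intermembrane side, was at -0.46 (adjusted p = 0.0395), Ndufb9, a protein of the LYR family that binds the acyl carrier, at -0.44 (adjusted p = 0.0397) and Ndufb10, another cysteine-rich subunit, at -0.48 (adjusted p = 0.0411). Ndufa2, an accessory subunit of the matrix arm, had a log2 fold change of -0.57 that missed the threshold (adjusted p = 0.0685), with 34.3 to 76.3 CPM in HNKO L against 64.2 to 84.7 CPM in WT L.

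**Figure D2:**
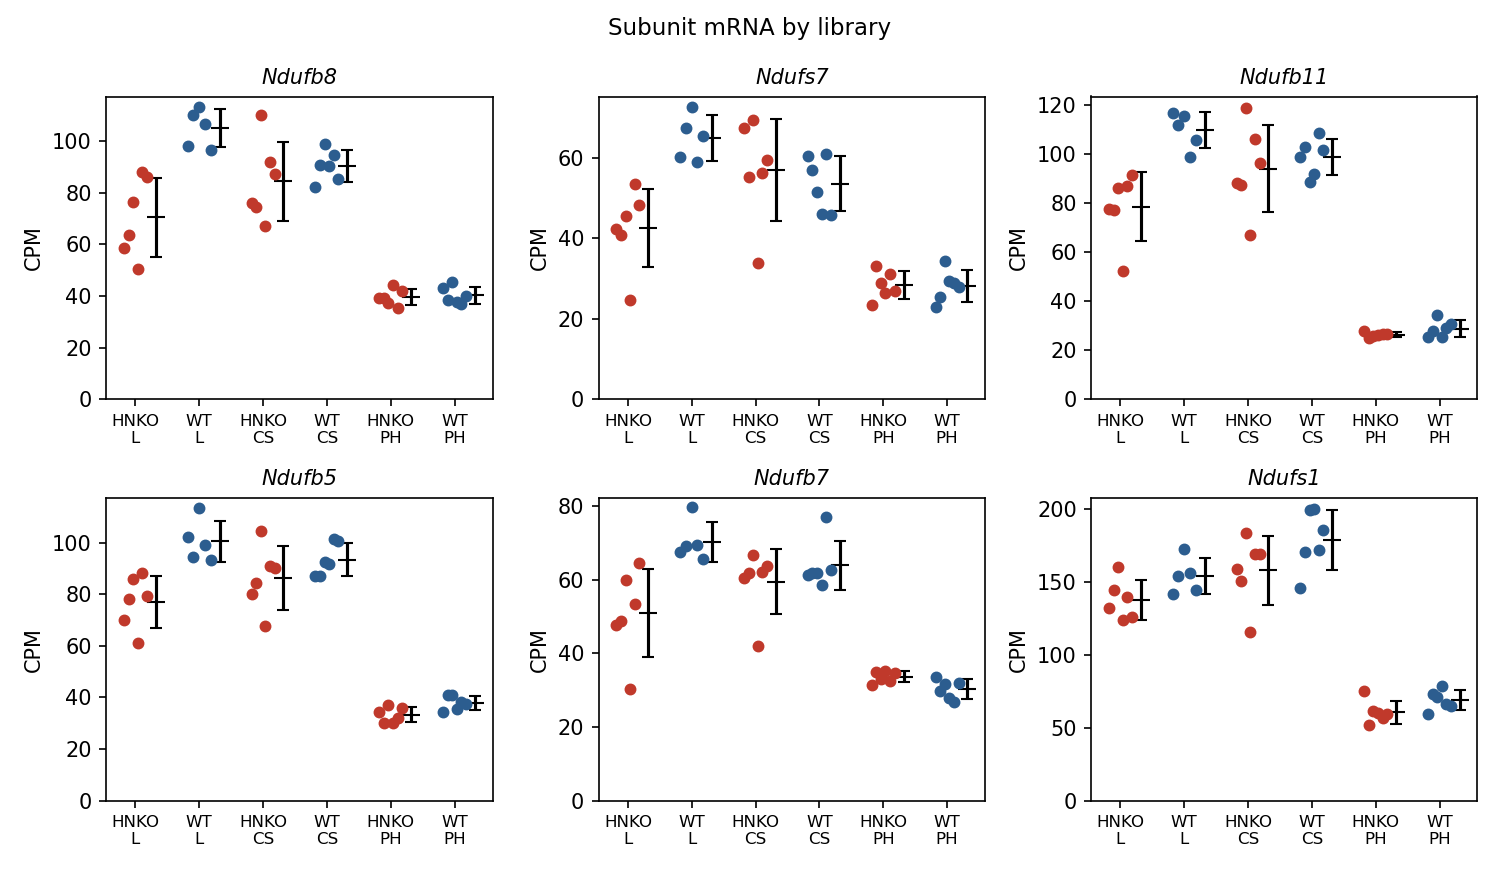
Level of 6 subunit genes (Ndufb8, Ndufs7, Ndufb11, Ndufb5, Ndufb7 and Ndufs1) in every library (TMM-scaled CPM, vertical axes) by sample type and genotype, with the mean ± SD of each group. In L the first 5 show HNKO below WT without overlap, while Ndufs1 overlaps (123 to 160 CPM in HNKO L, 142 to 173 CPM in WT L), and the group means of all 6 are lower in PH than in L, with overlap in HNKO for Ndufs7 and Ndufb7.

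Core subunits at the NADH end did not pass the test. Ndufv1, which binds NADH and flavin, had 85.6, 145 and 185 CPM in the lowest, median and highest HNKO L, against 151, 184, 191, 176 and 180 CPM in WT L. The groups overlapped and its log2 fold change was -0.33 ± 0.13 (adjusted p = 0.16). Ndufs1, the largest iron-sulfur subunit of the matrix arm, had 123, 136 and 160 CPM in HNKO L, against 142, 154, 173, 156 and 144 CPM in WT L, which overlapped at a log2 fold change of -0.16 ± 0.10 (adjusted p = 0.435). The acyl carrier Ndufab1 had 25.3, 26.9 and 37.0 CPM in HNKO L, against 32.4, 34.6, 33.8, 33.5 and 37.9 CPM in WT L. It also overlapped, at -0.25 ± 0.12 (adjusted p = 0.277). The smallest difference was that of Ndufb3, a small subunit of the distal membrane arm, at -0.15 ± 0.11 (adjusted p = 0.468).

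**Figure D3:**
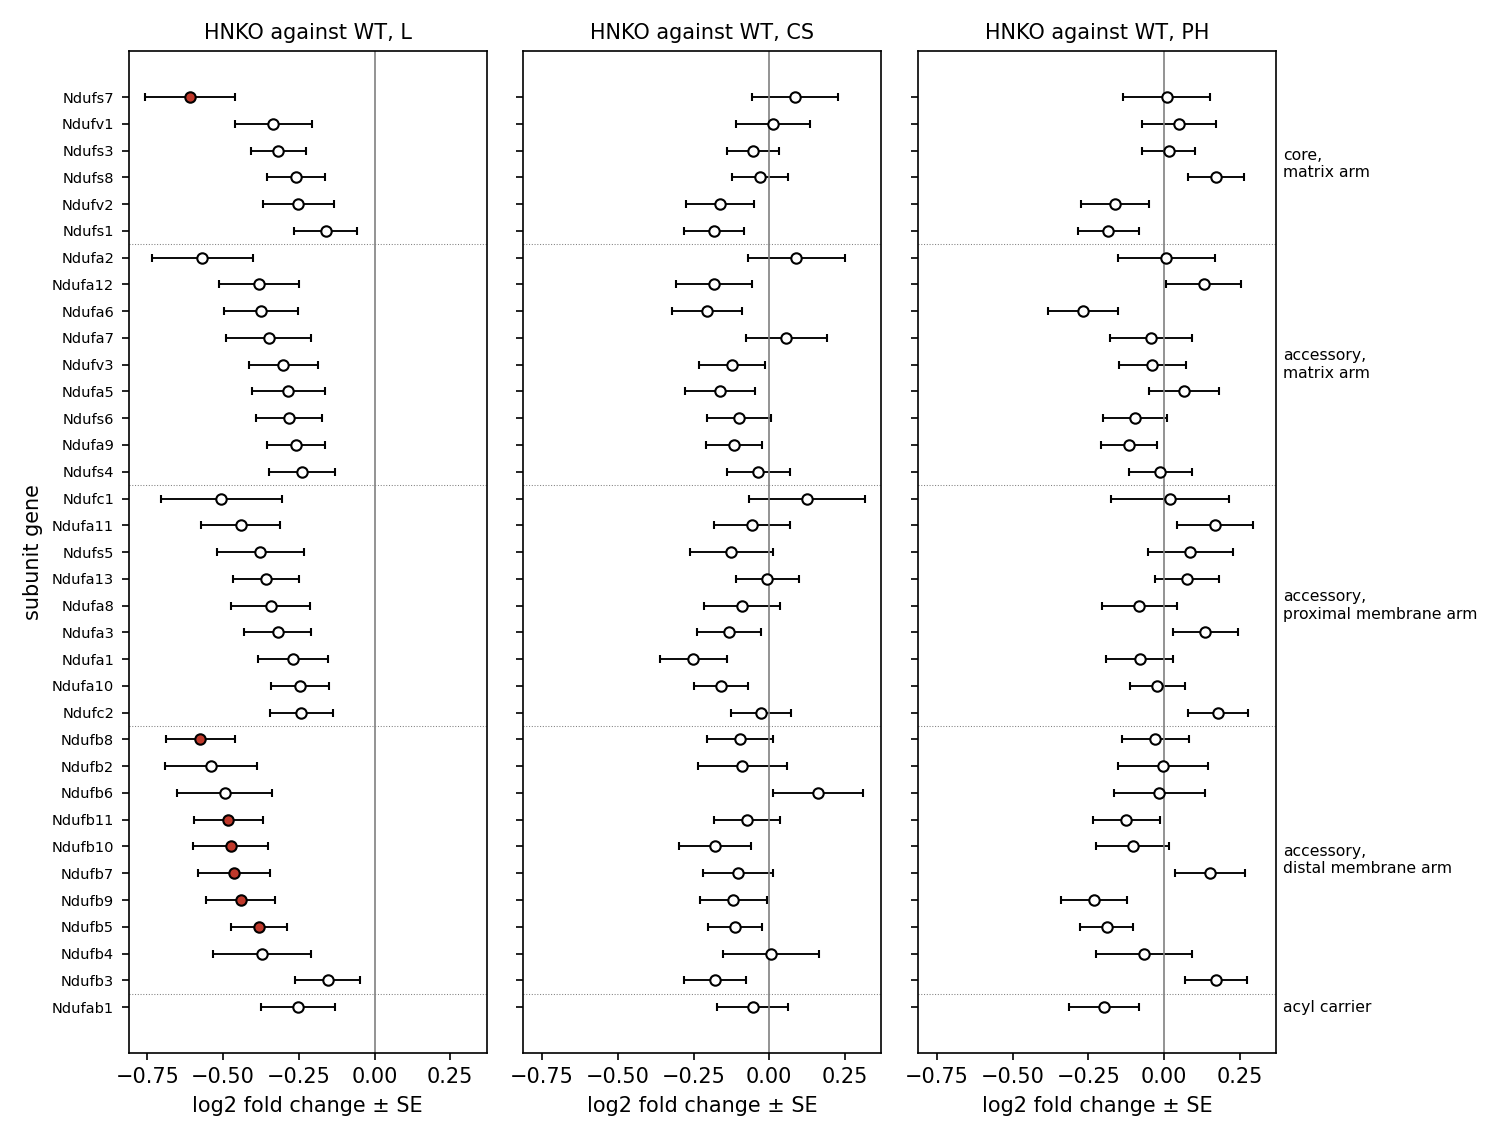
Log2 fold change of HNKO against WT (horizontal axis, with SE) for 35 of the 36 subunit genes in L, CS and PH, grouped by role. Filled red points passed an adjusted p under 0.05, which were 7 genes in L and 0 in CS and PH; all 35 points lie left of 0 in L, and the 36 genes have medians of -0.09 in CS and -0.01 in PH.

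Markers of other cell types were counted in the same contrast. The hepatocyte markers had 0 of 6 called and a median log2 fold change of -0.29, and the cholangiocyte markers had 1 of 6 tested (7 listed) higher with a median of 1.73. Stellate markers had 0 of 7 called with a median of 0.45, and proliferation markers 0 of 4 with a median of 1.75. Endothelial (0 of 6), Kupffer cell (0 of 7) and leukocyte markers (0 of 6) had medians of 0.18, 0.20 and 0.32. Their part in the lower subunit mRNAs was not tested. The count of 7 rested on single mice and on the samples in the fit. It was 0 without mouse 548 or with only the L libraries fitted, 1 without mouse 540, 554 or 564, 2 without 544 or 556, 3 without 542, 5 without 552 or 566, 6 without 558, 10 without 546 and 14 without 562, while the median of the 36 lay between -0.39 and -0.26 in these fits with a mouse left out. With total counts alone the median was -0.17, with 34 of 36 negative, against a median of 0.18 over all genes. With all 36 libraries it was -0.68. Ndufb8 stayed called in 19 of the 21 settings tried (adjusted p between 0.000557 and 0.0638).

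HNKO against WT in CS puts the same question to freshly dissociated cells. No member was called in either direction (0 of 38 with edgeR, where 0.0067% of genes were lower, 0 with DESeq2, and 1 at an unadjusted p under 0.05), and the median over the 36 subunits was -0.09, with 29 negative. Ndufa1, a small membrane subunit, had 43.2, 53.2 and 71.3 CPM in the lowest, median and highest HNKO CS, against 56.4, 68.4 and 69.9 CPM in WT CS. The groups overlapped at -0.25 ± 0.11 (adjusted p = 0.291). Ndufa6, an LYR protein that binds the acyl carrier, had 87.6, 130 and 140 CPM in HNKO CS, against 126, 138 and 162 CPM in WT CS, a log2 fold change of -0.21 ± 0.12 (adjusted p = 0.433). Ndufs1 had 115, 164 and 184 CPM in HNKO CS, against 146, 179 and 200 CPM in WT CS, at -0.18 ± 0.10 (adjusted p = 0.414). Ndufa10, which has the fold of a nucleoside kinase, had 103, 127 and 150 CPM in HNKO CS, against 129, 141 and 151 CPM in WT CS. These overlapped as well, at -0.16 ± 0.09 (adjusted p = 0.438). Ndufb8 and Ndufs7, lower in L, were at -0.10 ± 0.11 and 0.09 ± 0.14 in CS. With libraries scaled by total counts alone, the median in CS was 0.01 and 15 of 36 were negative, so no direction of the group holds there.

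After 24 h in culture the genotypes were close. No member was called in PH (0 of 38 with edgeR and with DESeq2, and 3 at an unadjusted p under 0.05), where 7.67% of all genes were lower in HNKO. The median over the 36 subunits was -0.01, and 21 were negative. Ndufa6 had 29.0, 42.9 and 47.9 CPM in the lowest, median and highest HNKO PH, against 36.5, 51.8 and 54.7 CPM in WT PH. The groups overlapped at -0.27 ± 0.12 (adjusted p = 0.125). Ndufb5 had 29.9, 33.2 and 36.9 CPM in HNKO PH, against 34.5, 37.9 and 41.0 CPM in WT PH, at -0.19 ± 0.09 (adjusted p = 0.156). Ndufb9 had 46.4, 53.0 and 59.6 CPM in HNKO PH, against 50.8, 61.6 and 73.0 CPM in WT PH, at -0.23 ± 0.11 (adjusted p = 0.162). Ndufb8 was at -0.03 ± 0.11 and Ndufs7 at 0.01 ± 0.14. In the same contrast 4 of 6 hepatocyte markers were lower, with a median of -0.78, and 4 of 7 stellate markers were higher and 1 lower.

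CS against L compares the washed cells with the liver piece of the same genotype, and differs in lobe, in handling and in the cells present. Cholangiocyte and leukocyte markers were lower in CS, each with 3 of 6 called in both genotypes, and with medians of -2.33 and -2.16 in HNKO and -2.48 and -2.40 in WT. Of 6 endothelial markers, 4 were called higher in HNKO with a median of 0.98 and 1 in WT with a median of 0.37, while 0 of 6 hepatocyte markers were called (medians 0.19 in HNKO and 0.01 in WT). Their part in the subunit values was not tested. In WT no member was called (0 of 38 with edgeR and with DESeq2, 5 at an unadjusted p under 0.05), against 2.46% of genes lower, and the median was -0.10 with 29 of 36 negative. That direction depends on the processing. The median was -0.21 with total counts alone and -0.51 with all 36 libraries. It was 0.06, with 15 of 36 negative, once a trend with the merged exon length of genes was removed. Among the 36 subunits the lowest were Ndufb4, with 4.84, 5.95 and 7.67 CPM in the lowest, median and highest WT CS against 7.69, 7.84, 8.93, 6.92 and 10.1 CPM in WT L, and Ndufc1, a small proximal subunit, with 23.2, 27.5 and 34.8 CPM against 28.1, 38.7, 39.1, 37.1 and 45.3 CPM. Both overlapped, at -0.45 ± 0.16 (adjusted p = 0.146) and -0.43 ± 0.20 (adjusted p = 0.281). Ndufa4l2, at 0.731 to 1.66 CPM in WT CS and 1.19 to 2.14 CPM in WT L, was at -0.67 ± 0.79 (adjusted p = 0.761). At the other end was Ndufs1, with 146, 179 and 200 CPM in WT CS against 142, 154, 173, 156 and 144 CPM in WT L (0.22 ± 0.10, adjusted p = 0.307). Ndufb3 had 39.7, 47.2 and 60.1 CPM in WT CS against 43.4, 39.4, 50.02, 45.9 and 37.0 CPM in WT L (0.18 ± 0.11, adjusted p = 0.45). Ndufa1 had 56.4, 68.4 and 69.9 CPM in WT CS against 60.7, 57.0, 65.7, 64.5 and 45.9 CPM in WT L (0.14 ± 0.12, adjusted p = 0.599). The groups overlapped for all 3. In HNKO, of the 36 subunits 33 were positive with a median of 0.17, but again 0 of 38 were called (0 with DESeq2, 9 at an unadjusted p under 0.05), against 1.94% of genes higher. Ndufs7 came nearest, with 33.8, 58.0 and 69.3 CPM in HNKO CS against 24.8, 44.0 and 53.5 CPM in HNKO L (0.42 ± 0.14, adjusted p = 0.0825). With the mouse as a fixed term in an edgeR fit it was called (0.42 ± 0.12, adjusted p = 0.0279). Under total-count scaling the HNKO median was -0.01, with 18 of 36 negative.

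Culture lowered nearly the whole set. In PH against L in WT, 37 of 38 genes were lower and Ndufa4l2 was higher, where 38.2% of all genes were lower and 37.5% higher. The median over the 36 subunits was -1.18, against 0.01 over all genes, and every PH library lay below every L library for 35 of the 36 genes, against 31.1% of all genes. The medians by role were -1.30 for the distal membrane arm, -1.21 for the core of the matrix arm, -1.05 for the proximal membrane arm and -1.01 for the accessory matrix subunits. Scaling by total counts alone moved the median of all genes up by 0.56, and the subunits then had a median of -0.63, which is 1.19 below that of all genes. In the same contrast 6 of 6 hepatocyte markers were lower, with a median of -2.61, and 7 of 7 stellate markers were lower. The part of cell composition in the fall was not tested.

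Ndufb10 (ENSMUSG00000040048.14, chr17:24722060-24724478, minus strand) had the largest fall in WT. It had 26.1, 31.4 and 34.2 CPM in the lowest, median and highest WT PH, against 124, 118, 149, 121 and 116 CPM in WT L, far apart at -2.01 ± 0.13 (adjusted p = 1.26e-15). Ndufb11 had 25.2, 28.5 and 34.5 CPM in WT PH, against 117, 112, 116, 98.8 and 106 CPM in WT L, at -1.93 ± 0.12 (adjusted p = 4.18e-16). Ndufa6 (chr15:82350140-82354322, minus strand) had 36.5, 51.8 and 54.7 CPM in WT PH, against 156, 163, 176, 191 and 150 CPM in WT L. Its groups were likewise separate, at -1.75 ± 0.12 (adjusted p = 1.89e-14). The core subunits Ndufv1 (64.7, 69.3 and 86.0 CPM in WT PH) and Ndufs1 (59.1, 68.7 and 78.5 CPM in WT PH) fell by 1.29 ± 0.13 and 1.16 ± 0.10 on the log2 scale. Subunits of both arms fell, and the size of the fall showed little relation to transcript length (rho = -0.09 over 36 genes) or to the level per kb in WT L (rho = -0.07), as descriptions across genes.

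The weakest falls were those of Ndufa12 and Ndufab1. Ndufa12 (ENSMUSG00000020022.17, chr10:94198720-94221443, plus strand), a matrix-arm subunit related to the assembly factor Ndufaf2, had 20.9, 23.9 and 26.1 CPM in the lowest, median and highest WT PH, against 31.7, 26.4, 35.1, 40.7 and 25.8 CPM in WT L. It was the only member of the 36 with overlapping groups, at -0.43 ± 0.13 (adjusted p = 0.0037). Ndufab1 had 23.8, 24.7 and 26.5 CPM in WT PH, against 32.4, 34.6, 33.8, 33.5 and 37.9 CPM in WT L, without overlap, at -0.45 ± 0.12 (adjusted p = 0.00116). Both changed sign when libraries were scaled by total counts alone, to 0.13 for Ndufa12 and 0.09 for Ndufab1.

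**Figure D4:**
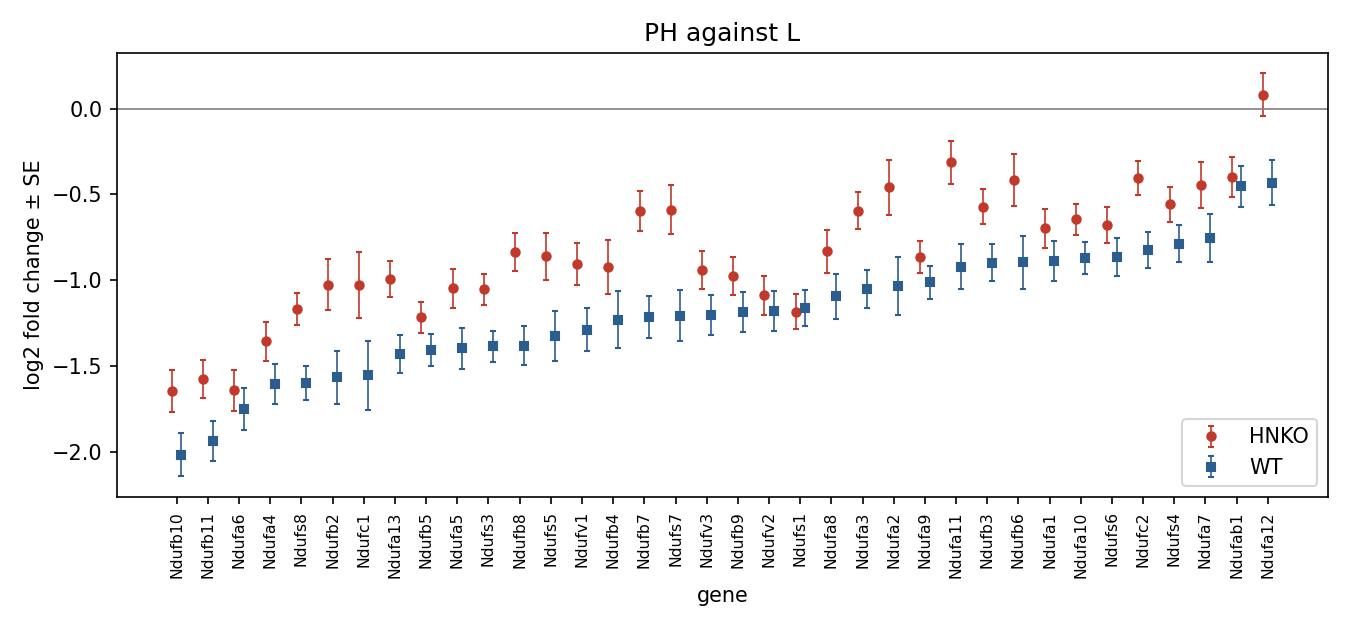
Log2 fold change of PH against L (vertical axis, with SE) in HNKO (red circles) and WT (blue squares) for 36 genes, without Ndufa4l2. All WT values are below 0, with Ndufb10 lowest at -2.01 and Ndufa12 highest at -0.43, and in HNKO the value of Ndufa12 is 0.08.

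In HNKO, PH against L gave 36 lower and 1 higher of 38, where 38.5% of genes were lower and 37.7% higher, and the median over the 36 subunits was -0.85. Ndufb10 was again lowest, with 27.1, 29.0 and 30.0 CPM in the lowest, median and highest HNKO PH against 55.3, 95.4 and 105 CPM in HNKO L (-1.64 ± 0.12, adjusted p = 8.12e-14). Ndufa6 was next to it at -1.64 ± 0.12, with 29.0 to 47.9 CPM in HNKO PH against 111 to 142 CPM in HNKO L. Ndufa12 did not pass, with 22.1, 26.0 and 29.1 CPM in HNKO PH against 17.98, 25.6 and 30.1 CPM in HNKO L (0.08 ± 0.13, adjusted p = 0.565). PH against CS gave similar counts. In HNKO 36 were lower and 1 higher (37.6% of genes lower), with a median of -0.99 over the 36, and in WT 36 were lower and 1 higher (36.8% of genes lower), with a median of -1.08. The exceptions were Ndufa12 in HNKO (-0.13 ± 0.13, adjusted p = 0.337) and Ndufab1 in WT (-0.21 ± 0.12, adjusted p = 0.102). These contrasts share their PH libraries with those against L. With total counts alone the medians were -0.38 for PH against L in HNKO, -0.35 for PH against CS in HNKO and -0.41 for PH against CS in WT, where the medians of all genes were 0.46, 0.66 and 0.71.

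Whether the genotype effect differed between PH and L was tested as an interaction. It was positive for 35 of the 36 subunits with a median of 0.34. The median was 0.19 with the length trend removed, with 4 of 36 negative, and 0.56 with all 36 libraries. For 19 of the 38 genes the difference had an unadjusted p under 0.05. At an adjusted p under 0.05, 1 gene was called, where 0.609% of all genes were called higher. That gene was Ndufb7 (ENSMUSG00000033938.5, chr8:83566671-83571626, plus strand). In L it had 30.4, 51.2 and 64.6 CPM in the lowest, median and highest HNKO, against 67.6, 69.1, 79.7, 69.6 and 65.6 CPM in WT, without overlap. In PH it had 31.5, 33.9 and 35.3 CPM in HNKO, against 26.8, 30.7 and 33.7 CPM in WT, which overlapped. The difference of the effects was 0.62 ± 0.17 (SE, adjusted p = 0.0495), and the call was lost without any of 9 of the 12 mice (adjusted p between 0.0259 and 0.140 over the 12 fits).

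Next in p were Ndufb8 at 0.55 ± 0.16 (adjusted p = 0.0665) and Ndufa11, a membrane-embedded proximal subunit, at 0.61 ± 0.18 (adjusted p = 0.0716). Ndufa11 had 25.2, 40.6 and 49.4 CPM in HNKO L, against 45.9, 49.6, 54.3, 61.4 and 52.0 CPM in WT L. In PH it had 27.7, 32.4 and 33.9 CPM in HNKO, against 26.4, 27.9 and 29.3 CPM in WT, so the medians changed order while the ranges overlapped in both. With the mouse as a fixed term in an edgeR fit 6 members were called for this difference. They were Ndufb7 (0.67, adjusted p = 0.0297), Ndufa11 (0.65, adjusted p = 0.0308), Ndufs7 (0.68, adjusted p = 0.0428), Ndufb8 (0.57, adjusted p = 0.0441), Ndufa13 (0.47, adjusted p = 0.0475) and the iron-sulfur core subunit Ndufs8 (0.45, adjusted p = 0.0478). The share of all genes called in that edgeR fit is not given here, so the 6 cannot be set against it. A limma fit without a mouse block, which is a different method, called 0. For CS minus L, 0 were called (14 at an unadjusted p under 0.05, 0 with DESeq2; median 0.25 over the 36, 0.12 with the length trend removed and 0.61 with all 36 libraries), and for PH minus CS also 0 (1 at an unadjusted p under 0.05, 0 with DESeq2; median 0.05).

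The NDUFA4 pair moved in opposite directions in culture. Ndufa4 is now known as a component of cytochrome c oxidase (complex IV), and its paralog Ndufa4l2 is known as a gene induced in hypoxia. Ndufa4 had 169, 209 and 282 CPM in the lowest, median and highest HNKO L, against 253, 260, 269, 270 and 272 CPM in WT L, with overlap (-0.28 ± 0.11, adjusted p = 0.202). In PH it had 78.7, 85.5 and 93.2 CPM in HNKO, against 76.6, 83.4 and 104 CPM in WT, and its fall against L was -1.36 ± 0.11 in HNKO and -1.60 ± 0.12 in WT. Ndufa4l2 (ENSMUSG00000040280.10, chr10:127514967-127517154, plus strand) lay between 0.731 and 2.14 CPM in every L and CS library. In WT PH it had 35.5, 79.7, 89.0, 47.9, 146 and 101 CPM in mice 544, 548, 554, 556, 558 and 564, all far above L (5.54 ± 0.67, adjusted p = 5.77e-09).

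In HNKO PH Ndufa4l2 was uneven between mice, with 53.4, 11.3, 89.5, 0.157, 58.6 and 46.6 CPM in mice 540, 542, 546, 552, 562 and 566. Mouse 552, with 4 counts, lay below every L library, and the other 5 lay above all of them. The log2 fold change of HNKO PH against HNKO L was 4.84 ± 0.61 (adjusted p = 1.46e-08), and 5.00 without mouse 552. In a limma fit without a block it was 3.41 (adjusted p = 0.075). HNKO against WT in PH gave -0.94 ± 0.47 (adjusted p = 0.189), so the genotypes were not separated. The HNKO PH of mice 552 and 542 also had the lowest summed Kupffer cell markers (55.5 and 59.0 CPM, against 167 to 358 CPM in the other 4) and the highest summed cholangiocyte markers (450 and 364 CPM, against 72.3 to 353 CPM). These sums mainly follow single genes. On average over HNKO PH, Cd68 gave 184 of the 192 CPM of the Kupffer cell sum, and Spp1 205 of the 251 CPM of the cholangiocyte sum. Cd68 was higher in HNKO PH than in HNKO L (mean 15.9 CPM), while Clec4f was lower (1.34 against 121 CPM). The part of these markers in the low Ndufa4l2 values was not tested.

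**Figure D5:**
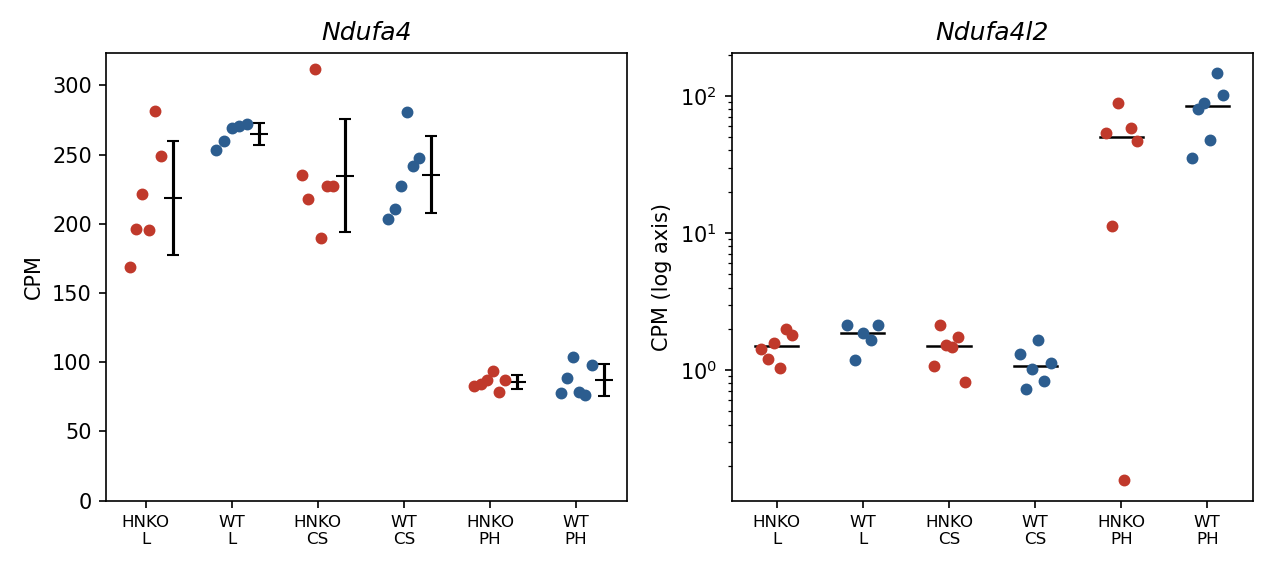
Levels of Ndufa4 (left, linear axis) and Ndufa4l2 (right, log axis) in every library (TMM-scaled CPM) by sample type and genotype, with the mean ± SD of each group for Ndufa4 and the group medians as lines for Ndufa4l2. Ndufa4 is lower in PH than in L in both genotypes, and Ndufa4l2 lies between 0.731 and 2.14 CPM in L and CS and at 35.5 to 146 CPM in WT PH, with 1 HNKO PH library at 0.157 CPM.

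The other genes of the pathway were counted from fixed lists. Assembly factors of complex I, which build the complex without staying in it, had 16 of 17 genes tested and 0 called in L with edgeR (4 at an unadjusted p under 0.05), with a median of -0.15. In PH 1 was higher in HNKO, Ndufaf3, with 4.78 to 7.24 CPM in HNKO PH against 2.48 to 5.37 CPM in WT PH (0.68 ± 0.20, adjusted p = 0.0223). That is 1 of 16, where 5.14% of all genes were higher. In PH against L 12 were lower in HNKO with a median of -0.48 and 11 were lower in WT with a median of -0.63, where 38.5% and 38.2% of all genes were lower. The subunits encoded in mitochondrial DNA had 6 of 7 genes tested. In L 0 were called between genotypes with edgeR (0 at an unadjusted p under 0.05), with a median of -0.13, and in PH, where 7.67% of all genes were lower, 3 were lower in HNKO, mt-Nd1 at -0.81 (adjusted p = 0.0245), mt-Nd2 at -0.74 (adjusted p = 0.0279) and mt-Nd4 at -0.67 (adjusted p = 0.0366). Their ranges overlapped between genotypes in PH, with a WT library lowest, as for mt-Nd1 at 2167 to 3102 CPM in HNKO PH against 1265 to 6004 CPM in WT PH. In PH against L 5 of the 6 were lower in HNKO and 6 of 6 in WT, with medians of -1.37 and -1.05.

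Nuclear subunits of complexes II to V, the rest of the oxidative phosphorylation chain, were counted likewise. In L 8 of 38 were lower in HNKO (0.475% of all genes), with a median of -0.36, and in PH 1 of 38 was lower (7.67% of all genes). In PH against L 38 of 38 were lower in each genotype, with medians of -0.96 in HNKO (38.5% of all genes lower) and -1.25 in WT (38.2%). A difference between these complexes and complex I was not tested.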

How the data were processed

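The authors deposited 1 table of unnormalized counts of fragments for 54232 genes in 36 libraries, and these counts were the starting point. Libraries were stranded, depleted of ribosomal RNA and sequenced from both ends. Reads were aligned to GRCm38 with STAR (2.7.2b in the submitters' processing notes, an earlier version in the study's methods) and counted with featureCounts 1.6.4 where both ends aligned. The strand setting is not given in the sources used here, so overlapping genes are uncertain. Symbols and coordinates are from GENCODE M21, where the study names M22, and matched 54165 of 54232 identifiers.

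The study left out 1 library without naming it. The WT L library of mouse 558 was left out here, and the 35 others were used. filterByExpr (minimum count 10) kept 14932 genes, and the genes not kept held 0.0856% of the counts. CPM values were scaled by TMM. Each contrast was tested in 1 fit over the 6 groups with the quasi-likelihood test of edgeR 4.0.16 in R 4.3.3, two-sided, with Benjamini-Hochberg adjustment over all genes tested, and called at an adjusted p under 0.05. Every adjusted p is from this fit unless another is named. SE is that of the log2 fold change. Scripts were tested on simulated data. Levels per kb used 1 principal transcript per gene.

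Alternatives were DESeq2 1.42.0, limma 3.58.1 (voom) without a mouse block, RLE size factors, total counts alone and no filter. Others were all 36 libraries, only the groups compared, removal of a trend with the merged exon length of genes, and each mouse left out. The mouse was also entered as a block in limma for HNKO against WT in L, CS and PH. For the other contrasts it was entered as a fixed term in edgeR. Limma without the block was added after seeing the data. The mouse number joins the 3 libraries of an animal. The median correlation of same-mouse libraries, after removal of group means, was 0.324 for L with CS, 0.101 for L with PH and 0.156 for CS with PH, against -0.023, -0.016 and -0.0009 for different mice.

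The members and the gene lists were chosen with earlier results of these data known, so counts over them are descriptions. Counts at an unadjusted p under 0.05 are given without the share of all genes at that cutoff. Values by library are given for the 4 members with the smallest p in each genotype contrast, the 3 highest and 3 lowest log2 fold changes of CS and PH against L in WT, the 3 with the smallest p for the genotype effect in PH minus L, and Ndufs1, Ndufv1, Ndufab1, Ndufa4 and Ndufa4l2. Others given by library were chosen after their values were seen. The values of 1 subunit gene are not reported here, and it is not drawn by name, though it is in the counts, sums and medians.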

Additional observations from a re-analysis of the deposited data

Results flagged for a closer look

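In 126 groups of libraries (21 quantities in each of 6 groups), 9 held a library far from the rest, where chance gives about 1 in 20 groups. Mouse 552 was low for Ndufb11 in HNKO L (52.2 CPM, next 77.0) and for Ndufb7 in HNKO CS (42.1 CPM, next 60.5). Mouse 544 was low for Ndufa6 in WT PH (36.5 CPM, next 51.5), for Ndufa10 in WT PH (65.7 CPM, next 76.1) and for Ndufb9 in WT CS (119 CPM, next 132). Mouse 554 was high for Ndufb10 in WT L (149 CPM, next 124) and for Ndufb7 in WT L (79.7 CPM, next 69.6). Mouse 558 was high for Ndufb7 in WT CS (77.1 CPM, next 62.6), and mouse 546 for Ndufa4 in HNKO CS (311.5 CPM, next 235.1).

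The genotype effect on Ndufb7 differed between PH and L by 0.62 (log2) in the test of the difference itself. Mouse 554, the high WT library in L, was among the 9 mice without which this call was lost.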

How the results depend on the processing

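The count of members called in L changed with the mice and libraries in the fit, and the sizes of the falls in PH changed with the scaling. At 0.731 to 2.14 CPM, Ndufa4l2 had the widest SE of the 38 genes in HNKO against WT in L (0.73) and in CS against L in WT (0.79). Of 252 recomputed counts of members called, 210 stayed within 1.5 times the count reported. Of the recomputed values of single genes, 3154 kept direction and side of the threshold, 125 kept direction but lost the call and 18 changed sign. Only results called in the main fit were recomputed, and most of these were contrasts of PH with L or CS. The genes called lower in HNKO L kept the call in 8 (Ndufb9) to 19 (Ndufb8) of 21 settings. The Ndufb7 difference between PH and L kept it in 5. The cause of these changes was not tested.

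For HNKO against WT in L the count of 7 became 12 with DESeq2, 1 with total counts alone, 3 with no filter, 26 with all 36 libraries, 0 with only the groups compared and 4 with the length trend removed, and 0 (without mouse 548) to 14 (without mouse 562) with each mouse left out. Over all genes in this contrast, DESeq2 called 358 higher and 186 lower, and the fit with the length trend removed 155 higher and 48 lower. For HNKO against WT in PH the count of 0 became 1 with total counts alone, and 0 to 1 with each mouse left out. For CS against L in WT the count of 0 became 1 with total counts alone and 9 with all 36 libraries. For CS against L in HNKO it became 1 with the length trend removed, and 0 to 1 with each mouse left out. For the genotype effect in PH minus L the count of 1 became 4 with DESeq2 and 0 with RLE size factors, total counts alone, no filter, all 36 libraries, only the groups compared, the length trend removed or limma without the block, and 0 to 3 with each mouse left out. For this difference DESeq2 called 224 higher and 436 lower over all genes.

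With the mouse as a block (limma voom, consensus correlation 0.157), the count was 10 for HNKO against WT in L. With the mouse as a fixed term in edgeR, which pairs the samples of an animal, it was 1 for CS against L in HNKO. The same edgeR fit gave 6 for the genotype effect in PH minus L. For the other contrasts the count stayed within 1.5 times the count reported. The shares of all genes called in these fits with the mouse are not given here.

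With total counts alone, calls over all genes in HNKO against WT were 1056 higher and 45 lower in L (154 and 71 with TMM) and 1123 higher and 697 lower in PH (767 and 1146 with TMM). In PH against L they were 7821 higher and 4171 lower in HNKO (5623 and 5751 with TMM) and 7959 higher and 3956 lower in WT (5596 and 5703 with TMM). The log2 fold changes that changed sign under this scaling were, for PH against L in HNKO, Ndufa11 at 0.16, Ndufa2 at 0.012, Ndufa7 at 0.017, Ndufab1 at 0.063, Ndufb6 at 0.052 and Ndufc2 at 0.056, and in WT Ndufa12 at 0.13 and Ndufab1 at 0.093. For PH against CS they were Ndufa11 at 0.076, Ndufa7 at 0.011, Ndufab1 at 0.29, Ndufc2 at 0.21 and Ndufs4 at 0.079 in HNKO, and Ndufa12 at 0.22, Ndufa7 at 0.13, Ndufb6 at 0.060, Ndufc2 at 0.027 and Ndufs4 at 0.069 in WT.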
